A study of Mus musculus with 15 samples.

Results

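This account compares 2 parthenogenetic mouse embryonic stem (ES) cell lines, OpB6D2 and FpB6CBA, gene by gene. The 6 arrays were chosen by their titles from the 15 arrays of the study, 3 of OpB6D2 and 3 of FpB6CBA. Parthenogenetic means that the embryo came from an oocyte activated without sperm, so both chromosome sets are maternal in both lines. OpB6D2 came from naturally ovulated oocytes of B6D2F1 hybrids, the offspring of C57BL6 females and DBA2 males. FpB6CBA came from oocytes grown in vitro, inside preantral follicles cultured from 2-week-old prepubertal B6CBAF1 females, the offspring of C57BL6 females and CBA/Ca males. Each line is a single derivation. Oocyte source, cross and derivation differ together between the lines and cannot be told apart.

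Background helps to read the genes below. ES cells keep the identity of the early epiblast through a network of transcription factors, and they can slip toward extraembryonic endoderm or trophectoderm. An imprinted gene is expressed from the maternal or the paternal allele only, as set by DNA methylation laid down in the germ line, so a parthenogenetic cell lacks the paternal copy that normally expresses genes such as Igf2 and Peg3. Undifferentiated female ES cells carry X chromosomes that are both active, whereas males carry a single X.

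Expression was measured on an Affymetrix mouse array, and each value is a log2 level, so that a difference of 1 is a doubling. Array medians over the genes tested ran from 6.63 to 6.79. The correlation over genes, which are not independent replicates, was 0.948 to 0.954 between an OpB6D2 and an FpB6CBA array and 0.993 to 0.997 between arrays of either line. Several quality measures differed between the lines. The 18S ribosomal RNA control read 5.05 to 5.63 on OpB6D2 arrays and 6.43 to 7.13 on FpB6CBA arrays. The actin control signal at the 3' end exceeded that at the 5' end by 0.50 to 0.55 in OpB6D2 and by 0.66 to 0.76 in FpB6CBA. The spiked poly-A controls averaged 7.96 to 8.31 in OpB6D2 and 8.67 to 9.60 in FpB6CBA, with FpB6CBA array 3 at the top and also the lowest in median level. The part of these measures in the differences below was not tested. The labels do not say that the arrays are separate cultures, so p-values measure only the spread between arrays.

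Of the 12813 genes tested, 1284 (10.0%) were called different, at an adjusted p under 0.05 and at least a 2-fold difference. The calls split almost evenly, with 637 genes (4.97%) higher and 647 (5.05%) lower in OpB6D2. Large falls outnumbered large rises: 62 genes were at least 4-fold higher and 117 at least 4-fold lower in OpB6D2, and at 8-fold the counts were 11 and 22. The arrays of the lines did not overlap for 1283 of the 1284 called genes, but the same was true of 64.4% of all genes tested. A called gene was thus nearly certain to show no overlap, and statements of it below add no further support. With no minimum fold, 8037 genes (62.7%) passed the adjusted p, beside a median difference over all genes of -0.02 and a median standard error of 0.09. Without FpB6CBA array 3, 579 genes were called higher and 713 lower.

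**Figure D1:**
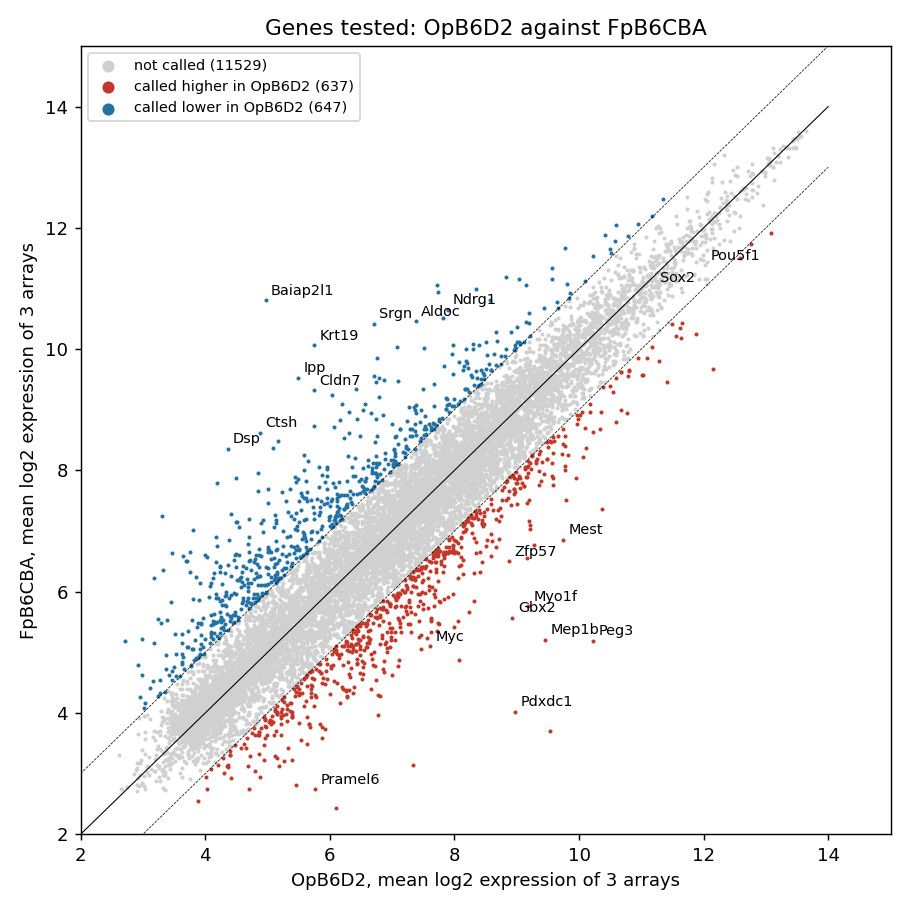
Mean log2 expression of each tested gene in OpB6D2 (horizontal axis) and FpB6CBA (vertical axis), 3 arrays each, with called genes in colour and dashed lines at a 2-fold difference. The 637 genes called higher in OpB6D2 lie below the diagonal and the 647 called lower lie above it; among genes with standard symbols Peg3, Pdxdc1 and Mep1b had the largest rises and Baiap2l1, Krt19 and Ipp the largest falls.

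Peg3, an imprinted zinc finger gene expressed from the paternal allele, had the largest rise among genes with a standard name. Its levels were 10.33, 10.21 and 10.13 on the OpB6D2 arrays, against 5.37, 5.23 and 4.95 on the FpB6CBA arrays. A gene with only an accession symbol, AI662270, had a larger rise of 5.83. Peg3 was thus plainly expressed in one parthenogenetic line and near the low end of the scale in the other, a 32.9-fold difference (log2 5.04 ± 0.11 SE, adjusted p = 5.4e-13, n = 3 arrays each). Both other tested probe sets of Peg3 gave similar differences of 4.49 and 5.05. The level of Peg3 averaged 9.56 in FpB6D2, the follicle-culture line of the B6D2F1 cross. It averaged 8.87 in NmB6D2, a line from naturally fertilised embryos of C57BL6 females and DBA2 males. In R1, a line from 129S1/SvImJ and 129X1/SvJ mice, it averaged 10.21. FpB6CBA was therefore the line set apart from the other 4 at this gene.

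Snhg14 is a long noncoding host RNA of the imprinted Prader-Willi and Angelman region, where it runs antisense to Ube3a. Its levels were 6.08, 6.01 and 6.21 in OpB6D2, against 2.39, 2.50 and 2.44 in FpB6CBA. A line mean under 3.864, the low-level filter used for testing, gives only a lower bound on a fold, computed against that value, and here the bound was at least 4.71-fold (log2 difference 3.66 ± 0.13). A second tested probe set gave 4.10. In the other 3 lines Snhg14 averaged 5.43 to 5.93, so that FpB6CBA was again the low one.

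Other large rises were of genes with diverse roles. Mep1b, which encodes the beta subunit of the metalloprotease meprin, was 18.9-fold higher in OpB6D2 (9.43, 9.51 and 9.40 against 5.46, 5.30 and 4.87 in FpB6CBA). Myo1f, a class I myosin gene of motile blood cells, was 10.7-fold higher (9.19, 9.16 and 9.20 against 5.85, 5.66 and 5.77). Zfp936, a zinc finger gene, was 9.18-fold higher, Aard 8.04-fold and Aspa, the aspartoacylase gene, 7.02-fold. None of these had overlapping arrays. For 2 of the largest rises the probe sets of the gene did not share the difference. Pdxdc1 was 31.1-fold higher by the probe set that stands for it (8.96, 8.98 and 8.99 in OpB6D2, against 4.07, 4.40 and 3.58 in FpB6CBA), whereas its other 3 tested probe sets had differences of -0.85, -3.43 and -0.56. Prune2 was at least 11.2-fold higher by its main probe set, with differences of 0.34 and -0.30 by the others. Those values describe probe sets and not the whole gene.

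Baiap2l1, which encodes an adaptor of the actin cytoskeleton, had the largest fall. It read 5.02, 5.16 and 4.74 in OpB6D2, against 10.86, 10.81 and 10.77 in FpB6CBA, a 57.4-fold difference (-5.84 ± 0.12, adjusted p = 5.4e-13). A second probe set gave -4.80. In the other lines it averaged 4.29 in FpB6D2, 6.61 in NmB6D2 and 4.32 in R1, all below FpB6CBA. Ipp, a kelch-repeat actin-binding protein gene, was 16.5-fold lower in OpB6D2 (5.52, 5.46 and 5.49 against 9.48, 9.66 and 9.46 in FpB6CBA) and averaged 4.85 to 5.67 in the other lines. Ctsh, a lysosomal cathepsin gene, was 13.4-fold lower, and B4galnt2, a glycosyltransferase gene, at least 10.4-fold lower. FpB6CBA had the highest mean of the 5 lines for each of these 4 genes.

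**Figure D2:**
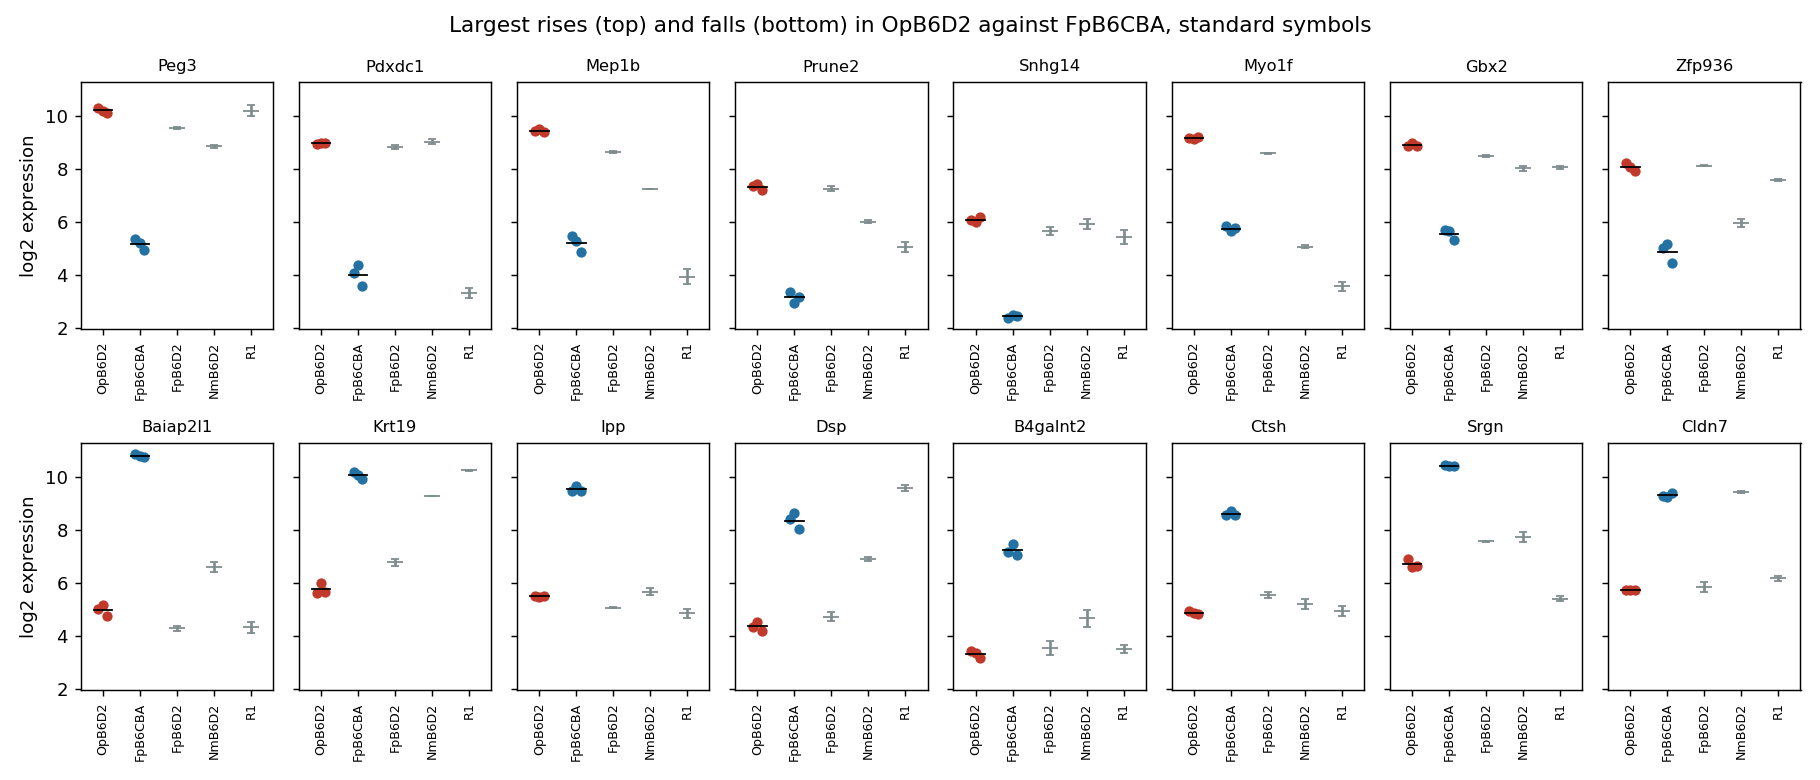
Log2 expression of the 8 genes with the largest rise (top row) and the 8 with the largest fall (bottom row) in OpB6D2 against FpB6CBA, among genes with standard symbols (AI662270, a larger rise, and 2610528J11Rik, a larger fall than Cldn7, are not drawn); points are single arrays with the line mean as a bar, and grey marks are the mean ± SD of 3 arrays of FpB6D2, NmB6D2 and R1. FpB6CBA has the lowest mean of the 5 lines for Peg3, Prune2, Snhg14, Gbx2 and Zfp936, and the highest for Baiap2l1, Ipp, B4galnt2, Ctsh and Srgn.

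To read the calls by function, 38 gene lists were used, and each is described by its counts beside the background of 4.97% higher and 5.05% lower. Members that did not pass the low-level filter are not counted, and a list's members are not replicates of one another.

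The naive pluripotency list holds factors of the ground state of ES cells. Of its 30 tested members, 8 rose in OpB6D2 and 0 fell, with a median difference of 0.49. Gbx2, a homeobox gene downstream of LIF and Stat3, rose most: 8.89, 9.01 and 8.89 in OpB6D2, against 5.69, 5.68 and 5.33 in FpB6CBA, a 10.3-fold difference. Zfp57, which guards methylation at imprinted regions, was 5.19-fold higher (8.62, 9.16 and 8.85 against 6.55, 6.21 and 6.74). Klf4, a reprogramming factor, was 3.53-fold higher (10.79, 10.73 and 10.80 against 9.08, 8.88 and 8.90). These groups of arrays did not overlap. Nanog, a core pluripotency factor, was 2.79-fold higher (11.32, 11.21 and 11.32 in OpB6D2, against 9.71, 9.82 and 9.89 in FpB6CBA). The X-linked Nr0b1 was 4.22-fold, Tbx3 2.52-fold and Dppa2 2.14-fold higher. Lin28a was 2.11-fold higher by its main probe set, but a second probe set was called the other way, with a difference of -1.47. Prdm14 missed the minimum at 1.99-fold. The naive list averaged 9.73 in OpB6D2 and 9.07 in FpB6CBA, with FpB6D2 at 9.85 and NmB6D2 at 9.06. R1 lay between OpB6D2 and FpB6CBA. By this average FpB6CBA lay near NmB6D2, the line from fertilised embryos, and was not set apart. Single genes differed from the average: FpB6CBA had the lowest mean of the 5 lines for Gbx2, Zfp57, Klf4, Nanog and Nr0b1. For Lin28a the lowest was FpB6D2.

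The core factors of ES cells were expressed in both lines. Pou5f1 had 12.05, 11.97 and 12.02 in OpB6D2, against 11.35, 11.41 and 11.37 in FpB6CBA, a 1.55-fold difference. Sox2 had 11.16, 11.22 and 11.25, against 10.95, 11.03 and 11.06, a 1.14-fold difference. Both were among the high levels on the array and under the 2-fold minimum. Of the 7 core factors, Nanog alone was called. Of the naive list, Dppa3 (-0.50 ± 0.12) and Tcl1 (-0.36) had the most negative values, and neither was called.

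Signalling genes tied to self-renewal differed in both directions. Of 26 tested targets and feedback genes of the FGF-ERK pathway, 5 rose and 1 fell in OpB6D2 (median 0.43). Myc, the growth-promoting transcription factor gene, was 5.69-fold higher (7.65, 7.64 and 7.53 against 5.11, 5.08 and 5.10 in FpB6CBA). The feedback inhibitors Spry4 and Dusp6 were 3.78-fold and 3.22-fold higher, Dusp4 was 2.51-fold and Etv5 2.10-fold higher. Of 3 other tested probe sets of Spry4, 1 was called higher (1.55) and the others had 0.07 and 0.03. Fos, an immediate early gene, went the other way at 7.17-fold lower (6.55, 6.75 and 6.83 against 9.66, 9.33 and 9.66). Egr1, another immediate early gene, had a difference of -0.04.

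Of 38 tested BMP and TGF-beta pathway genes, 2 rose and 2 fell in OpB6D2 (median 0.01). Inhbb, a subunit gene of activin B, was 6.10-fold higher and Id3, a BMP target, 2.89-fold higher. A second probe set of Inhbb had 0.92 and was not called. Fstl3, which encodes a secreted activin antagonist, was 2.94-fold lower (5.20, 5.20 and 4.99 in OpB6D2, against 6.75, 6.65 and 6.65 in FpB6CBA). Smurf1, a ubiquitin ligase gene of the pathway, was 2.46-fold lower by its main probe set, and a second probe set had 0.55. Of 18 tested Nodal and Lefty genes 0 were called, and the largest difference was that of Lefty2 (0.94 ± 0.13), which passed the fold minimum without FpB6CBA array 2 (1.03).

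Of the 46 tested Wnt pathway genes 4 rose and 1 fell (median 0.09), and with averaged probe sets 2 of 40 rose. An average took in every probe set of a gene, also those that did not pass the low-level filter. Such probe sets can draw the averaged difference toward 0. Wls, needed for the secretion of Wnt ligands, was 3.27-fold higher (7.19, 7.03 and 6.92 in OpB6D2, against 5.59, 5.35 and 5.09 in FpB6CBA). Sfrp2, a secreted Wnt modulator gene, was 2.77-fold higher, and Dkkl1, a Dickkopf-like gene, 2.81-fold lower. Wnt5a, a Wnt ligand gene near background in FpB6CBA, was at least 2.38-fold higher by its main probe set and had 0.60 and 0.28 by the other 2. With the probe sets of a gene averaged, Smurf1 (-0.38), Wls (0.84), Wnt5a (0.65) and, among the FGF-ERK genes, Spry4 (0.89) lost their calls. Of 21 tested genes of the primed epiblast 2 rose, among them the transcription factor gene Foxd3 (3.53-fold), and 3 fell.

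The primitive endoderm list, genes of the yolk sac endoderm lineage, was the list with the lowest median. Of its 28 tested members, 0 rose and 15 fell in OpB6D2, with a median of -1.28. Srgn, the proteoglycan serglycin, fell most (6.90, 6.59 and 6.64 against 10.46, 10.40 and 10.40 in FpB6CBA, 13.1-fold). Dab2, an endocytic adaptor, was 5.55-fold lower (6.56, 6.53 and 6.48 against 9.09, 9.07 and 8.85). Its partners in the uptake of protein across the yolk sac, the receptor genes Cubn and Amn, were 5.06-fold and 4.62-fold lower, and Lrp2 had a difference of -1.32. Genes of basement membrane fell with them: Lama1 was 5.35-fold lower, Col4a1 5.17-fold (8.86, 8.99 and 8.62 against 11.33, 11.28 and 10.98), and Col4a2 and Lamb1 had differences of -1.88 and -1.24. Without probe sets able to match several transcripts, Dab2 had -0.63 and was not called. Among transcription factors Sox17 was 3.97-fold, Gata4 2.60-fold and Foxa2 at least 3.08-fold lower.

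Other defining genes of that lineage moved little. Gata6 had 6.25, 6.38 and 6.13 in OpB6D2, against 6.99, 6.90 and 6.80 in FpB6CBA, a difference of -0.64 ± 0.12 that was not called. Pdgfra had -0.15 ± 0.18, with overlapping arrays, and Sox7 had -0.26 ± 0.10. Over the whole list the array means ran from 6.09 to 6.17 in OpB6D2 and from 7.30 to 7.49 in FpB6CBA. The mean of the list was 6.15 to 6.28 in the other 3 lines, so FpB6CBA stood above all of them. In such bulk samples, fewer cells of a type and less RNA per cell cannot be told apart.

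Epithelial genes formed the other large group of falls. Of 36 tested genes of keratins and cell junctions, 0 rose and 15 fell in OpB6D2 (median -0.85). Krt19, a simple-epithelium keratin, was 19.8-fold lower (5.61, 5.99 and 5.67 against 10.19, 10.08 and 9.92 in FpB6CBA). Dsp, the desmosomal plaque protein gene, was 16.0-fold lower (4.35, 4.53 and 4.20 against 8.40, 8.63 and 8.03). Cldn7, a tight junction claudin gene, was 11.9-fold lower (5.73, 5.75 and 5.75 against 9.30, 9.26 and 9.39). All arrays of OpB6D2 lay below all arrays of FpB6CBA for these genes. The keratin partners Krt18 and Krt8 were 10.1-fold and 9.31-fold lower, Krt7 10.5-fold, Tjp3 9.96-fold and Cldn6 7.99-fold. Tmem30b, a subunit gene of phospholipid flippases that is no member of the list, was 9.79-fold lower. Esrp1, a splicing regulator of epithelial cells, was 4.62-fold lower.

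The broad adhesion genes of ES cells differed less. Cdh1, the E-cadherin gene, had 9.70, 9.63 and 9.66 in OpB6D2, against 10.48, 10.54 and 10.51 in FpB6CBA, a 1.80-fold difference under the minimum. Epcam had a difference of -0.17. The epithelial list averaged 6.28 in OpB6D2 and 7.66 in FpB6CBA, with FpB6D2 at 6.37, NmB6D2 at 7.79 and R1 at 6.89. Here FpB6CBA lay near NmB6D2, unlike in the primitive endoderm list. The trophectoderm list shares 4 keratins with the epithelial list, and these made up 4 of its 5 falls among 20 tested members. The other was Ascl2, an imprinted trophoblast factor, at 3.89-fold lower. Without probe sets able to match several transcripts 14 members could be tested, of which 1 rose and 3 fell. The defining trophectoderm factors Cdx2 (-0.24), Eomes (-0.25) and Elf5 (-0.65) were not called, and Elf5 lay below the filter value on every array of both lines.

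**Figure D3:**
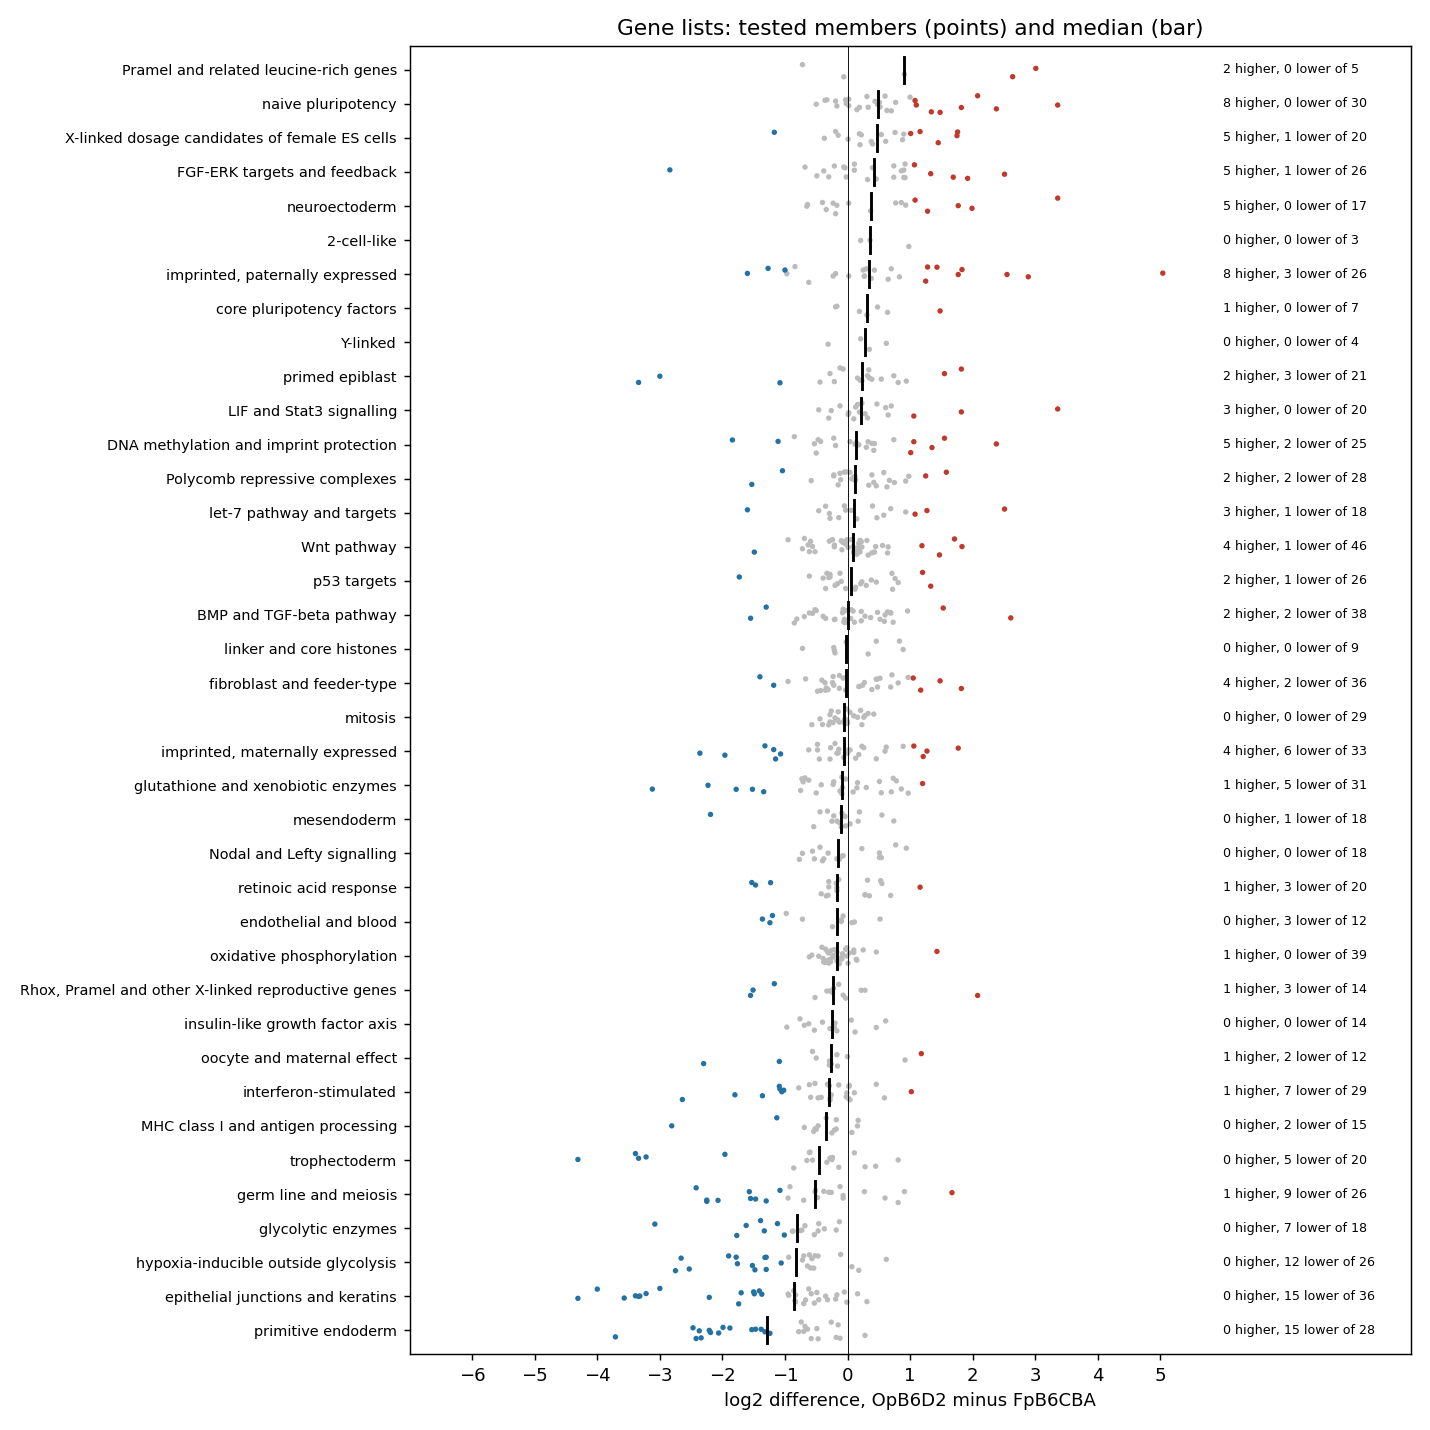
Log2 difference (OpB6D2 minus FpB6CBA, horizontal axis) of every tested member of the 38 gene lists, with the list median as a black bar; red points were called higher in OpB6D2, blue points lower, and grey points were not called. Primitive endoderm (15 of 28 lower, median -1.28), epithelial (15 of 36, -0.85), hypoxia-inducible (12 of 26, -0.83) and glycolytic genes (7 of 18, -0.81) lie at the bottom, and naive pluripotency (8 of 30 higher, 0.49) near the top.

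Genes induced by low oxygen and genes of glycolysis were also lower in OpB6D2. Cells short of oxygen stabilise the transcription factor HIF, which raises glycolytic enzymes and genes for oxygen supply. Of 18 tested glycolytic genes, 0 rose and 7 fell, with a median of -0.81, and 0 of the 18 had a difference above 0. Aldoc, an aldolase gene, was 8.45-fold lower (7.40, 7.28 and 7.46 in OpB6D2, against 10.52, 10.50 and 10.36 in FpB6CBA). Pfkl, the liver-type phosphofructokinase gene, was 3.42-fold lower (9.52, 9.58 and 9.58 against 11.31, 11.32 and 11.37), Hk1 3.08-fold and Pfkfb3 2.62-fold. A second probe set of Pfkfb3 had -0.72 and was not called. Several of the abundant enzymes of the pathway moved less than the minimum: Ldha had a difference of -0.68 and Pgk1, which is X-linked, of -0.37. Without probe sets whose names mark a match to several transcripts, 9 of these genes could be tested and 2 were called lower, a count chosen after seeing the data.

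Of 26 tested hypoxia-inducible genes outside glycolysis, 0 rose and 12 fell (median -0.83). Ndrg1, a stress-response gene, was 6.74-fold lower (7.88, 7.74 and 8.06 in OpB6D2, against 10.65, 10.66 and 10.64 in FpB6CBA), and its 4 other tested probe sets gave -2.76 to -3.38. P4ha2, a collagen prolyl hydroxylase gene, was 6.34-fold lower, Selenbp1 5.76-fold and Ero1a, an oxidase of protein folding, 3.73-fold lower. P4ha1 was 3.40-fold, the mitophagy gene Bnip3 2.79-fold and Vegfa, the angiogenic growth factor gene, 2.08-fold lower. Car9 (-0.59) and Egln3 (-0.72) were not called. Averages of the list on single arrays ran from 7.89 to 7.95 in OpB6D2 and from 8.94 to 8.99 in FpB6CBA, with no overlap. The other lines averaged 7.68 in FpB6D2, 8.80 in NmB6D2 and 8.05 in R1. Of 39 tested oxidative phosphorylation genes 1 rose, Cox7c (at least 1.80-fold, near background), and 0 fell (median -0.17). Of 29 mitosis genes 0 were called (median -0.05), and the largest difference was that of Kif23 (-0.57 ± 0.07).

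The promoters of 4 of these genes are shown because they hold the short motif that HIF binds. Each is the stretch of 250 bases before the gene's start in RefSeq (build GRCm38.p6), written 5' to 3' on the strand of the gene, and capitals mark ACGTG or GCGTG on either strand. P4ha2 lies on the + strand (chr11:54100674-54100923) and has 3 matches. Selenbp1 is on the + strand too (chr3:94932833-94933082) with 3 matches, 2 of which share a base. Ero1a is on the - strand (chr14:45318573-45318822) with 3 matches, and Pfkl on the - strand (chr10:78009808-78010057) with 1.
P4ha2: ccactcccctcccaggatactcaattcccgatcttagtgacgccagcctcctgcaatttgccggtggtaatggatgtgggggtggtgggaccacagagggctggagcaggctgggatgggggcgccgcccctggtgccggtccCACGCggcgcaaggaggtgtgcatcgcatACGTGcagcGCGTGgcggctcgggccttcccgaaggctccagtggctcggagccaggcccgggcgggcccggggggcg
Selenbp1: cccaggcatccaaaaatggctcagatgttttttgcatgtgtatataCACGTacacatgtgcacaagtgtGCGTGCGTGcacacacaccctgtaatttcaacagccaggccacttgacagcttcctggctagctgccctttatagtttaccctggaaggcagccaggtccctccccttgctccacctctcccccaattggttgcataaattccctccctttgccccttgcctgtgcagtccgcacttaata
Ero1a: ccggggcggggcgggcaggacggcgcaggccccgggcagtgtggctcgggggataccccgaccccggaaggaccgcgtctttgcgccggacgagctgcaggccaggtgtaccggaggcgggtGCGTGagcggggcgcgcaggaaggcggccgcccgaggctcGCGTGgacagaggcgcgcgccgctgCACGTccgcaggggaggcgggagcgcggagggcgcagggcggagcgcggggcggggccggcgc
Pfkl: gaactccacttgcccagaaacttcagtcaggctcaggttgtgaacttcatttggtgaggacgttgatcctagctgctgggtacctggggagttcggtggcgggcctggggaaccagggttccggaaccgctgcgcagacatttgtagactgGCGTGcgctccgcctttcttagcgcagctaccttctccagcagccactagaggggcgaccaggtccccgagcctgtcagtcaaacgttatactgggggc

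Of the 19 called glycolytic and hypoxia-inducible genes, 17 had such a stretch in the RefSeq table, and 15 of them (88.2%) held at least 1 match. The motif is short and common in promoters, with a match for 60.3% of 10333 tested genes and 63.9% of 513 genes called lower in OpB6D2. A gene was counted when any of its stretches held a match. Of all 32851 single promoter stretches, 38.6% held a match, a share that is not by gene. A match is a description of the letters and not a site of binding.

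Imprinted genes did not follow a single direction. Of 26 tested genes expressed from the paternal allele, 8 rose and 3 fell in OpB6D2 (median 0.34), although both lines lack a paternal genome. After Peg3, the rises were of Mest, a hydrolase gene, at 7.40-fold (9.70, 9.78 and 9.77 in OpB6D2, against 6.74, 7.07 and 6.77 in FpB6CBA) and of Zdbf2 at 5.84-fold (8.09, 8.03 and 8.05 against 5.50, 5.60 and 5.42). Ndn, a Prader-Willi region gene like Snhg14, was 3.42-fold higher (8.59, 8.52 and 8.69 against 6.89, 6.86 and 6.73). Arrays of the lines did not overlap for any of them. Ddc, imprinted in a tissue-specific way, was 3.56-fold higher, the noncoding RNA Kcnq1ot1 2.70-fold and Nnat 2.39-fold higher. FpB6CBA had the lowest mean of the 5 lines for Mest, Zdbf2 and Kcnq1ot1, but not for Ndn, Ddc or Nnat. In NmB6D2 Ndn averaged 6.41 and Ddc 6.53, and in R1 Nnat averaged 4.17, all below FpB6CBA. Peg12, near background in both lines, was at least 1.12-fold higher. A second tested probe set of Kcnq1ot1 had 0.95 and was not called. With averaged probe sets 5 of 24 tested members rose and 1 fell, and Ndn (1.00) and Ddc (0.92) lost their calls. Of the 4 other tested probe sets of Ndn, however, 3 were called higher. Ddc has no other tested probe set, so its average took in a probe set that did not pass the low-level filter. Snrpn (0.70 ± 0.12) and Impact (0.65 ± 0.07) stayed under the minimum, and Dlk1 (0.02 ± 0.10) had overlapping arrays.

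The falls among paternally expressed genes were of Peg10, Sgce and Slc38a4. Peg10 and its neighbour Sgce were 3.04-fold lower (4.17, 4.54 and 4.01 in OpB6D2, against 6.32, 6.17 and 5.05 in FpB6CBA) and 2.42-fold lower (6.70, 6.66 and 6.65 against 8.02, 7.88 and 7.94). Slc38a4, an amino acid transporter gene with noncanonical imprinting, was 2.01-fold lower, just past the minimum, and lost its call without OpB6D2 array 5 (-0.97) or FpB6CBA array 1 (-0.99). Averaging probe sets ended the calls of Slc38a4 (-0.71) and Sgce (-0.66), though the other probe set of Sgce did not pass the low-level filter. Igf2, the fetal growth factor gene, had 5.87, 6.18 and 6.22 in OpB6D2, against a mean of 7.06 ± 0.06 (SD) in FpB6CBA, with no overlap. This 1.96-fold difference (-0.97 ± 0.16, adjusted p = 9.3e-05) was not called, and it was small beside the levels of 9.73 in NmB6D2 and 11.34 in R1, the lines with a paternal genome. Of the 14 tested genes of the insulin-like growth factor axis, 0 were called.

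Of 33 tested genes expressed from the maternal allele, 4 rose and 6 fell (median -0.06). Cdkn1c, an inhibitor of cell cycle kinases, was 5.13-fold lower (5.40, 5.60 and 5.38 in OpB6D2, against 7.96, 7.88 and 7.61 in FpB6CBA). Its neighbours Ascl2 and Phlda2 in the same imprinted cluster were 3.89-fold and 2.50-fold lower. The antisense RNA of that cluster, Kcnq1ot1, was the gene given above as higher, so cluster members differed in direction. In the Dlk1-Dio3 cluster the maternal noncoding RNAs Mirg and Meg3 were 3.42-fold and 2.09-fold higher by their main probe sets. Rian had 0.89 ± 0.12 and was not called, and neither was a second probe set of Mirg (0.67). Meg3 has 8 other tested probe sets, of which 2 were called higher and 2 had a negative difference. Trappc9, Dcn and Ago2 were 2.21-fold, 2.26-fold and 2.09-fold lower, with 2 of the 3 other probe sets of Ago2 positive. Tfpi2 and Cobl were 2.32-fold and 2.41-fold higher, Cobl with a second probe set at -0.03. Meg3 lost its call without OpB6D2 array 4 (1.00) or FpB6CBA arrays 2 (0.98) or 3 (0.96). It also did so with array weights (1.00) and without probe sets able to match several transcripts (0.81). Tfpi2 lost its call without FpB6CBA array 3 (0.97) and Ago2 without OpB6D2 array 5 (-0.95). With averaged probe sets or without FpB6CBA array 3, 2 of the 33 rose in place of 4. Averaged probe sets ended the calls of Meg3 (0.44), Ago2 (-0.15), Cobl (0.62), Dcn (-0.57) and Trappc9 (-0.36). For Dcn and Trappc9 every probe set added by the average had not passed the low-level filter.

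Of 25 tested genes that maintain, remove or protect DNA methylation, 5 rose and 2 fell in OpB6D2 (median 0.14). This count depended on the processing: 2 rose and 2 fell with averaged probe sets, and 3 rose and 2 fell with array weights or without FpB6CBA array 3. Besides Zfp57, the de novo methyltransferase gene Dnmt3a was 2.94-fold higher (9.02, 9.04 and 8.96 against 7.55, 7.55 and 7.26 in FpB6CBA), and 3 of its 4 other probe sets were called the same way. The demethylating enzyme genes Tet2 and Tet1 were 2.56-fold and 2.09-fold higher, and Zfp445, which also protects imprints, 2.01-fold. Gadd45b fell by 1.84 and Gadd45g by 1.11 on the log2 scale. Dnmt1, the maintenance enzyme gene, had -0.19 ± 0.08 with overlapping arrays. Among 9 tested linker and core histone genes 0 were called, with the variant histone gene H2az1 nearest (0.89 ± 0.06). Among 28 Polycomb genes 2 rose, Epop (2.98-fold) and Pcgf2 (2.38-fold), and 2 fell, Pcgf5 (2.89-fold) and Ezh1 (2.05-fold), while the catalytic Ezh2 had -0.15. A second probe set of Pcgf5 had the opposite sign. Averaged probe sets ended the calls of Tet2 (0.85), Pcgf2 (0.68), Pcgf5 (-0.42) and Ezh1 (-0.84), and Ezh1 also lost its call without OpB6D2 arrays 4 (-0.98) or 5 (-0.99) or FpB6CBA array 2 (-0.96).

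Where germ-line genes were called, most were lower in OpB6D2. Of 26 tested genes of germ cells and meiosis, 1 rose and 9 fell (median -0.52). Sycp3, a protein gene of the synaptonemal complex, was 5.34-fold lower (5.50, 5.61 and 5.62 in OpB6D2, against 7.94 to 8.05 in FpB6CBA). The meiotic cohesin genes Stag3 and Smc1b were 4.75-fold and 4.21-fold lower, and the piRNA pathway gene Asz1 4.76-fold. No array of OpB6D2 reached an array of FpB6CBA for these genes. Ddx4, the germ-cell helicase gene, was 2.77-fold lower, whereas Dazl had 0.27 ± 0.08 (9.69, 9.78 and 9.64 against 9.43, 9.44 and 9.45). The oocyte gene Nlrp14 was at least 3.21-fold lower, Khdc3 2.13-fold lower and Nlrp4f 2.27-fold higher. Nlrp14 averaged 5.55 in FpB6CBA and 2.89 to 3.24 in every other line, under the filter value, so it was tested only because of FpB6CBA. FpB6CBA had the highest mean of the germ-line list among the 5 lines, at 7.36 beside 6.70 in OpB6D2 and 5.68 to 6.37 in the others.

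X-linked genes differed more than those of any autosome. Of 414 tested X-linked genes, 97 rose and 15 fell in OpB6D2, so that 27.1% were called, against 9.44% of autosomal genes (4.32% higher and 5.11% lower). The median X-linked difference was 0.47, or 1.38-fold, and 323 genes (78.0%) lay above 0. Autosomal medians ran from -0.09 to 0.04 by chromosome, with 40.4% to 54.2% of genes above 0. The X-linked median lay below 1, the value of a doubling. It was 0.59 over the 138 X-linked genes with a mean level of 8 or more. With no filter on low values it was 0.19.

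**Figure D4:**
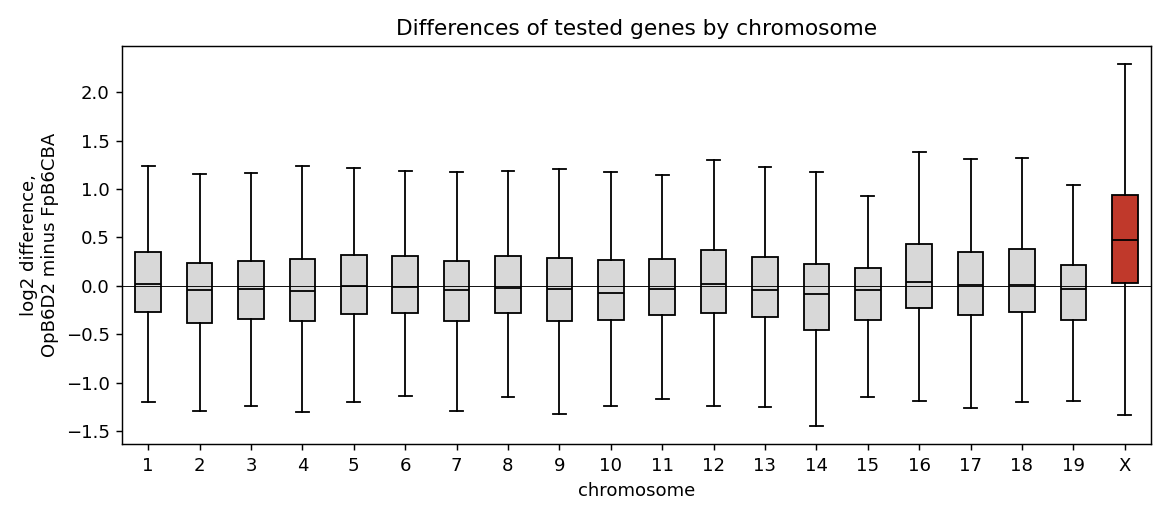
Log2 difference (OpB6D2 minus FpB6CBA, vertical axis) of the tested genes of each chromosome; boxes span the quartiles with the median as a line, and whiskers reach at most 1.5 interquartile ranges beyond. Autosomal medians lie between -0.09 and 0.04, and the X chromosome (red) has a median of 0.47 and quartiles of 0.03 and 0.94.

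The shift ran along the whole X chromosome. In 9 consecutive runs of 46 tested genes, medians lay between 0.22 and 0.81, and 8 to 18 genes of each run rose. The lowest was the run from Rhox6 to Zfp449 and the highest that from Zdhhc15 to Bex4. By array, the level of X-linked genes minus that of autosomal genes, each gene centred on its mean over the 15 arrays, was 0.33, 0.29 and 0.29 in OpB6D2, against -0.19, -0.18 and -0.23 in FpB6CBA. The same measure was 0.25 to 0.26 in FpB6D2, -0.22 to -0.17 in NmB6D2 and -0.10 to -0.08 in R1. On this measure FpB6CBA lay with NmB6D2 and R1, and OpB6D2 with the other parthenogenetic line. NmB6D2 and R1 both expressed the Y-linked Eif2s3y, with means of 8.61 and 7.99. The labels do not give the number of X chromosomes in the cells analysed, and it was not measured.

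**Figure D5:**
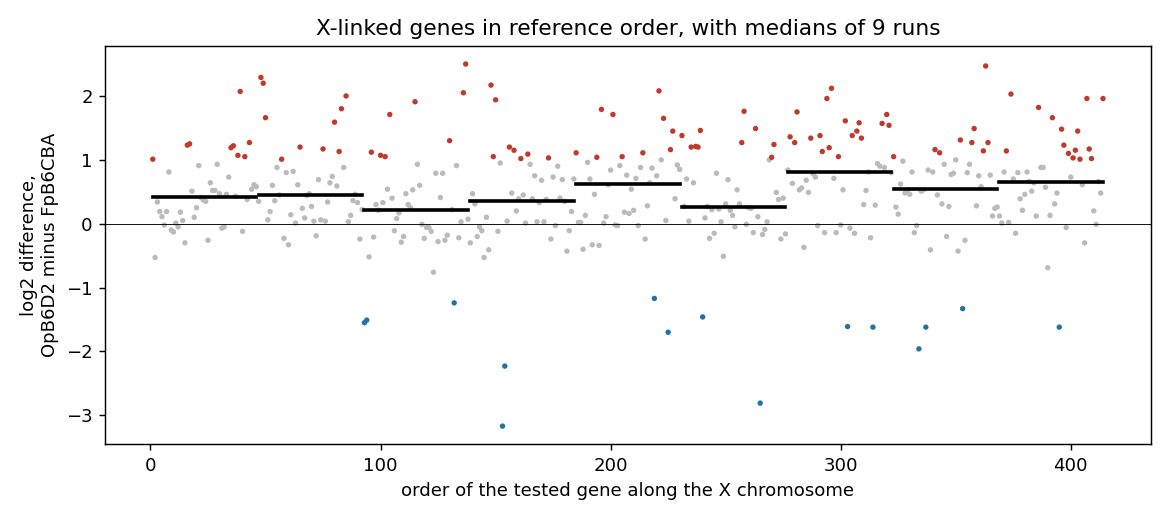
Log2 difference (OpB6D2 minus FpB6CBA, vertical axis) of the 414 tested X-linked genes in reference order (horizontal axis), red where called higher in OpB6D2, blue where lower, with the medians of 9 runs as black bars. Every run has a median above 0, from 0.22 to 0.81.

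The X-linked gene Med14, a Mediator subunit gene, was 4.91-fold higher in OpB6D2 (7.73, 7.80 and 7.72 against 5.64, 5.57 and 5.15 in FpB6CBA), and the kinase gene Wnk3 5.55-fold higher (8.36, 8.31 and 8.28 against 6.13, 6.14 and 5.27). The unannotated gene 1700013H16Rik was 5.66-fold higher (9.23, 9.15 and 9.43 against 6.30, 6.88 and 7.13). Widely expressed regulators rose as well: Ogt, the O-GlcNAc transferase gene, was 3.40-fold, the chromatin remodeller gene Atrx 3.36-fold and the translation factor gene Eif2s3x 2.74-fold higher. Kdm6a, a histone demethylase gene that escapes X inactivation, was 2.02-fold higher, and the zinc finger gene Zfx 2.24-fold. Med14 had 0.97 with averaged probe sets, and Eif2s3x 0.99 without probe sets able to match several transcripts, both just under the minimum. The 4 other tested probe sets of Med14 had 0.30 to 0.92, and none of them was called. Dusp9, an X-linked phosphatase gene that restrains ERK signalling, had 0.90 ± 0.07 and Huwe1 0.76, both under the minimum. Xist, whose RNA spreads over an inactive X chromosome, was low in both lines at 4.65, 5.08 and 5.01 in OpB6D2, against 4.59, 4.41 and 4.61 in FpB6CBA (0.38 ± 0.15, adjusted p = 0.04, not called). The Y-linked Eif2s3y lay below the filter value on all arrays of both, at 3.25 to 3.44 in OpB6D2 and 2.71 to 2.76 in FpB6CBA, beside means of 8.61 in NmB6D2 and 7.99 in R1.

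Against the general shift, 15 X-linked genes fell in OpB6D2. Cited1, a transcriptional coactivator gene, was 6.99-fold lower (5.02, 5.09 and 4.45 in OpB6D2, against 7.74, 7.73 and 7.50 in FpB6CBA). Among genes with clone names, 4933402E13Rik was at least 6.79-fold lower (3.43, 3.60 and 3.34 against 6.64, 6.67 and 6.57) and 3830417A13Rik 4.70-fold lower. The reproductive homeobox genes Rhox6 and Rhox9 were 2.93-fold and 2.85-fold lower, and Fthl17a, a ferritin-like gene, at least 1.92-fold lower. Along the autosomes, 486 runs of 25 neighbouring genes had medians between -0.44 and 0.62, and 1 run, on chromosome 5 from Cdk6 to Tmem243, lay past 0.5. In it 5 genes rose (Krit1, Steap2, Steap1, Rundc3b and Abcb1b) and 0 fell, and these were named after their values were seen.

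Markers of other cell types were read over whole lists. Of 36 tested fibroblast and feeder genes, 4 rose and 2 fell (median -0.03). Ccl2, a chemokine gene, was 3.53-fold higher and Thbs1 2.78-fold higher, while Fbln5 and Dcn were 2.64-fold and 2.26-fold lower. The list averaged 7.38 to 7.77 on OpB6D2 arrays and 7.33 to 7.63 on FpB6CBA arrays, which overlap. Of 17 tested neuroectoderm genes, 5 rose and 0 fell: Gbx2, Olig2 (3.97-fold), Tubb3 (2.42-fold), Sox1 (at least 1.91-fold, near background) and En2 (2.12-fold). Gbx2 is also in the naive pluripotency list and was counted there too. A second tested probe set of Sox1 had 0.10 and was not called. Pax6 (-0.64) and Nes (-0.19), other defining genes of that lineage, were not called. With averaged probe sets 2 fibroblast and feeder genes rose in place of 4, and Sox1 (0.94), Fbln5 (-0.78) and Dcn (-0.57) lost their calls. Of 18 mesendoderm genes, Foxa2 alone was called. Of 12 endothelial and blood genes 0 rose and 3 fell, Vwf, Lyz2 and Flt1, and all of these had means under 6 in both lines. Flt1 had -0.92 with averaged probe sets, which ended its call.

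The other ES lines place the differences. For each of the 1284 called genes it was counted whether the mean of a further line lay nearer to OpB6D2 or to FpB6CBA. FpB6D2 lay nearer to OpB6D2 for 1019 genes (79.4%), R1 for 911 (71.0%) and NmB6D2 for 567 (44.2%). FpB6D2 shares the follicle culture with FpB6CBA and the cross with OpB6D2. For genes lower in OpB6D2 the share of FpB6D2 was 87.9%, and for genes higher in OpB6D2 it was 70.6%. Among the 112 called X-linked genes, FpB6D2 was nearer to OpB6D2 for 86 and NmB6D2 for 25. Because each line is a single derivation, these counts describe lines and not crosses or oocyte sources.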

How the data were processed

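RNA of 5 mouse ES lines was hybridised to Affymetrix arrays, 3 per line. The deposited values are log2 expression levels, 1 for each of 45101 probe sets and 15 arrays, made by the authors with RMA and the affy package, per the submitters' processing notes. The log base is inferred from the values (1.99 to 13.96), and the genome build is not given in the sources used here. No scanner files or detection calls were used, and no further normalisation was applied. The number of arrays limits the precision.

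Probe sets with 1 gene symbol (34945) were used. Another 932 had several symbols, 9160 none, and 64 were controls. Each of 18193 genes was represented by its probe set with the highest mean, and 18031 matched a GRCm38.p6 gene table. Testing was limited to the 12813 genes with 3 or more arrays at 3.864 or higher, the overall median value, which left out 5380.

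A linear model with 1 mean per line was fitted to the 15 arrays with limma 3.58.1 in R 4.3.3. It gave the OpB6D2 minus FpB6CBA difference, its standard error and a Benjamini-Hochberg adjusted p over all genes tested. Calls need an adjusted p under 0.05 and a 2-fold difference. The fit was checked on simulated data, and plots were drawn with matplotlib 3.10.9.

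The comparison and the 38 gene lists were chosen with earlier results of these data known, and 8 entries of the imprinted lists were moved to the other allele's list after values were seen. The genes named are the 12 largest rises and the 12 largest falls with standard symbols, up to 4 called members of each list, all called imprinted genes, the member with the largest difference of a list with no call, the 6 most different called X-linked genes, and Igf2, Xist, Pou5f1, Nanog, Sox2 and Eif2s3y. H19, also in the rule, is not analysed here. Further list members are named as examples chosen after their values were seen. The counts of called members under each alternative were added after seeing the data. Alternatives covered filters, probe set choice, scaling, variance models, thresholds and leaving out each array.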

Additional observations from a re-analysis of the deposited data

How the results depend on the processing

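The number of calls depended mainly on the fold minimum and on how probe sets were joined. It was 1284 (637 higher and 647 lower in OpB6D2) as reported, 3344 (1753 and 1591) at a 1.5-fold minimum, 179 (62 and 117) at 4-fold, and 2409 (1352 and 1057) with each probe set by itself. With the probe sets of a gene averaged, 414 genes were called higher, and 816 of the 1263 calls that could be tested remained. These averages also took in probe sets that did not pass the low-level filter. Leaving out 1 array at a time gave 1270 to 1315 calls, 579 to 698 higher and 617 to 713 lower.

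The X-linked median (0.47) was 0.19 with no filter on low values, 0.60 with a stricter filter, and 0.45 to 0.48 without 1 array. List medians kept their sign. With the stricter filter they were -0.60 for germ-line, -0.94 for epithelial and -0.94 for hypoxia-inducible genes. With averaged probe sets they were 0.36 for naive pluripotency, -0.90 for primitive endoderm, -0.86 for glycolytic and -0.71 for hypoxia-inducible genes. Without probe sets whose names mark a match to several transcripts they were 0.33 for naive pluripotency, -0.90 for epithelial and -0.53 for glycolytic genes, and 2 glycolytic genes were called lower in place of 7. With each probe set by itself they were 0.42 for naive pluripotency, -0.79 for primitive endoderm and -0.94 for hypoxia-inducible genes. Array weights gave -0.92 for epithelial genes, and leaving out sex-linked genes gave -0.61 for germ-line and -0.87 for glycolytic genes. Without 1 array at a time, medians were -0.95 to -0.82 for epithelial, -0.90 to -0.78 for hypoxia-inducible and -0.61 to -0.49 for germ-line genes. The cause of these shifts was not tested.

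The sign changed for 2 results outside these: Lin28a was -0.20 with averaged probe sets, and the let-7 list had a median of -0.03 without probe sets able to match several transcripts. Of the 140 genes chosen by the naming rule, 23 others lost their calls with averaged probe sets and 7 without probe sets able to match several transcripts. Il6 lost its call without OpB6D2 array 4 (0.86) or FpB6CBA array 3 (0.92), and Igtp without FpB6CBA array 1 (-0.92). Usp17la passed the fold minimum without OpB6D2 array 5 (1.13) or FpB6CBA array 1 or 2 (1.06 each). Igf2 passed the fold minimum under quantile scaling (-1.04), with array weights (-1.03), and without OpB6D2 array 4 (-1.01) or 5 (-1.03). No paired analysis was possible because the numbered titles of the lines share no replicate number.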

Other observations

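Several smaller groups of genes differed between the lines. Of 29 tested interferon-stimulated genes, 1 rose and 7 fell in OpB6D2, against a background of 4.97% higher and 5.05% lower. Ly6e, a membrane protein gene, was 6.22-fold lower (8.41, 8.30 and 8.35 in OpB6D2, against 10.99, 11.05 and 10.93 in FpB6CBA), and Isg20 at least 2.73-fold lower, while Xaf1 was 2.03-fold higher. Oasl2 was at least 1.58-fold lower and Igtp 2.13-fold lower. Without probe sets able to match several transcripts, 21 of these genes could be tested, of which 1 rose and 2 fell, and Ly6e had -0.72 and was not called. Many classical members stood near 0, among them Ifit3 (0.02) and Rsad2 (0.04). Of 15 tested MHC class I and antigen processing genes, H2-Bl (at least 6.23-fold) and Psmb9 (2.19-fold) fell.

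Detoxification genes included 5 falls and 1 rise among 31 tested. Cyp2s1, a cytochrome P450 gene, was 8.68-fold lower (6.57, 6.74 and 6.94 in OpB6D2, against 9.97, 9.89 and 9.73 in FpB6CBA), and the glutathione transferase genes Gstm2, Gstm3 and Gstm1 were lower by 4.70-fold, 2.86-fold and 2.53-fold. Gpx2, a glutathione peroxidase gene, was 3.44-fold lower (7.33, 7.29 and 7.18 against 9.01, 9.08 and 9.06). Gstm3 had -0.71 without probe sets able to match several transcripts. Gstm genes are close paralogs, and cross-hybridisation between them was not tested. Pramel6 and Pramel7, genes of early embryos, were at least 3.72-fold and at least 3.02-fold higher by probe sets that can match several transcripts, and by their other probe sets had 0.30 and 0.54. Of 20 tested retinoic acid response genes, 1 rose and 3 fell (median -0.17). Hoxb2 was at least 1.64-fold higher, while Cyp26a1 and Rbp4 were 2.88-fold and 2.78-fold lower and Tgm2 2.34-fold lower (-0.99 and not called with averaged probe sets). Of 26 tested p53 target genes 2 rose, with the receptor gene Eda2r at 2.30-fold, and 1 fell, the death receptor gene Tnfrsf10b at 3.32-fold. Of 18 tested genes of the let-7 pathway 3 rose and 1 fell. Hmga2, a chromatin protein gene targeted by let-7, was 2.42-fold higher with all 3 of its tested probe sets called. The other rises were of Myc and Lin28a and the fall was of Peg10, all given above. Lin28a had a second probe set called the other way (-1.47). Of 3 tested genes of the 2-cell-like state 0 were called, and Usp17la had 0.98 ± 0.17. Of 2564 tested probe sets with no or several gene symbols, 131 were called higher and 64 lower in OpB6D2 (7.61%).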
